A study of Mus musculus with 8 samples.

Results

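Epithelial cells hold together through a shared set of membrane, junction and filament proteins, and 10 genes of that set were followed here in mouse pre-iPSCs, cells that set out towards induced pluripotent stem cells and stalled on the way. The genes are Cdh1, Epcam, Cldn4, Cldn7, Tjp3, Marveld3, Krt8, Krt18, Krt19 and Prss8. They were taken by name, as every probe set with 1 of these symbols as its only symbol, which gave 15 of the 45101 probe sets on the array and 10 of the 18193 genes measured. The 10 genes were chosen with earlier results of these data known. A count of members beside the share of all genes therefore describes the set and is no test of it. Krt8 and Marveld3 had 3 probe sets each, Epcam had 2 and the other 7 genes had 1. Where a gene had several, its value below is that of its brightest probe set, by the mean of all 8 arrays, unless another is named.

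All groups shared the standard medium for embryonic stem cells and 3 days of siRNA. Control arrays (n = 3) came from cells with siRNA to luciferase, a gene that mammalian cells lack. 3XHMT arrays (n = 2) came from cells with siRNA to Ehmt1, Ehmt2 and Setdb1 at the same time, which encode methyltransferases for lysine 9 of histone H3 (H3K9). Cbx3 arrays (n = 3) came from cells with siRNA to Cbx3, which encodes HP1 gamma, a protein that binds methylated H3K9. The labels speak of biological replicates and do not say what was repeated, so that p-values measure the spread between these samples, which may be technical. The sources used here do not give the origin of the line or the number of clones. Values are RMA log2 values as the authors deposited them, on which a difference of 1 is a doubling of signal.

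In an adherens junction, E-cadherin (Cdh1) binds its like on the next cell and is tied inside the cell to catenins and actin. Tight junctions lie above it and seal the sheet. Claudins such as Cldn4 and Cldn7 form their strands, MARVEL proteins such as Marveld3 sit in the same membrane, and ZO proteins such as Tjp3 (ZO-3) are the scaffold beneath. Keratins Krt8, Krt18 and Krt19 build the intermediate filaments of simple epithelia, with Krt8 pairing with Krt18 or Krt19. Epcam is a surface glycoprotein that binds Cldn7, and Prss8 (prostasin) is a membrane-anchored serine protease. Fibroblasts lack most of this set, and early reprogramming of fibroblasts is known to pass through a mesenchymal-to-epithelial transition in which Cdh1 and Epcam come on. Both are also present on embryonic stem cells.

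The transcription factors of the SNAIL and ZEB families are known to repress Cdh1 and other epithelial genes through the E-box CACCTG, and grainyhead-like factors, which activate epithelial genes, bind AACCGGTT. The start-site windows of the genes with the clearest separation between groups are therefore shown, as far as RefSeq (GRCm38.p6) holds an entry for them. Each window runs from 250 bases before the annotated start to 50 after it, 5′ to 3′ on the gene's own strand. Capitals mark CACCTG (or CAGGTG, the same site on the other strand), the GC box GGGCGG (or CCGCCC) and the TATA box TATAAA (or TTTATA). Epcam lies at chr17:87635729-87636028 on the plus strand, Cldn4 at chr5:134946885-134947184 on the minus strand, Krt8 at chr15:102004293-102004592 on the minus strand and Krt18 at chr15:102027966-102028265 on the plus strand.
Epcam: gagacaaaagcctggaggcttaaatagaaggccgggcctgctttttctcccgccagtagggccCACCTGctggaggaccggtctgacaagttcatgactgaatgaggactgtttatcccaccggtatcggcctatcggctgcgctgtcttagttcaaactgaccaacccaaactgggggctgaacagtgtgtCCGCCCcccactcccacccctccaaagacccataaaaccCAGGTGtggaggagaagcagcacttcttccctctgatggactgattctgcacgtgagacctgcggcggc
Cldn4: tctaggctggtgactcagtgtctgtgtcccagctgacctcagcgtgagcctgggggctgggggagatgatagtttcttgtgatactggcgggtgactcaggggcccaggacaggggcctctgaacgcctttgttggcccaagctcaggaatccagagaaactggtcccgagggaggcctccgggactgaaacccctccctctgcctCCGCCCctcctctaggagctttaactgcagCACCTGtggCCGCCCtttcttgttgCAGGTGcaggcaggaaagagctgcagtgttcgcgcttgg
Krt8: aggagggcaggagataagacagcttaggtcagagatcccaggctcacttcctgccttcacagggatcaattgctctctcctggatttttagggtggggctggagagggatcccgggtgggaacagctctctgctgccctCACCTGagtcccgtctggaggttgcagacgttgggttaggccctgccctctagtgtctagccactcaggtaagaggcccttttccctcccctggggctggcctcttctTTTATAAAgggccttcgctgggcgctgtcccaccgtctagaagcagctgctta
Krt18: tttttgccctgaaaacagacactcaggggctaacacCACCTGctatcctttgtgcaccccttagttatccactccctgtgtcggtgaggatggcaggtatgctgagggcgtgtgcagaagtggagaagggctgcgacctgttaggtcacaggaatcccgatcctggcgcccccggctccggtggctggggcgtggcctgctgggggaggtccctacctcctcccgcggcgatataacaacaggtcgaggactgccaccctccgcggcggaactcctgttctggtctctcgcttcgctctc
Positions give the leftmost base of a match, counted from the start site, whose base is +1. Epcam held CACCTG at -187 and, on the other strand, at -19. Cldn4 held it at -14 and, on the other strand, at +12, so that the pair flanks its start. Krt8 held 1 copy at -111 and Krt18 1 copy at -214. In Krt8 the TATAAA and TTTATA matches overlap in 1 stretch of 8 bases that spans the annotated start.

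Of the 10 genes, 6 had windows in the RefSeq table (Epcam, Cldn4, Cldn7, Tjp3, Krt8 and Krt18), with 8 windows in all because Cldn7 and Tjp3 had 2 start sites each. Cdh1, Krt19, Marveld3 and Prss8 are named only. CACCTG on either strand was in 7 of the 8 windows and in at least 1 window of each of the 6 genes, while 20.2% of all 32851 windows of the same length held it. GGGCGG was in 3 of the 8 windows against 35.7% of all windows, and TATAAA in 1 of 8 (Krt8) against 13.6%. AACCGGTT was in 0 of 8 and in 0.146% of all windows. A match shows that the letters are there, and nothing here measured the binding of a factor. Krt8 and Krt18 are neighbours on chromosome 15. Cldn4 lies beside Cldn3, Krt19 between Krt15 and Krt9, and Cdh1 beside Cdh3.

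Before the genes themselves, the arrays need a short account. The signal of the middle control probe set for 18S ribosomal RNA parted them into 3 sets, called tiers here: control 1 with Cbx3 1 (11.2 and 11.5), control 2 with 3XHMT 1 and Cbx3 2 (12.6 to 12.8), and control 3 with 3XHMT 2 and Cbx3 3 (9.98 to 10.2). Across genes, arrays of 1 tier in different groups departed from their group means alike (r of 0.50 to 0.74), and arrays of different tiers did not (-0.56 to 0.24). The low values between tiers are partly fixed by the arithmetic. Departures within a group sum to 0, and those of the 2 3XHMT arrays mirror each other (r = -1). What the tiers stand for is not given in the labels, and results are given with and without the tier as a block in the fit. Cbx3 itself fell: its signal in the Cbx3 arrays was 42.8% of control (limma adjusted p = 0.0453 over all probe sets, 0.00310 with the tier as a block), on the brightest Cbx3 probe set, which also carries the symbol of the pseudogene Cbx3-ps5. The brightest Cbx3 probe set with no other symbol was near the array median, at 6.03 in control and 5.76 in Cbx3, a difference of -0.27 (limma adjusted p = 0.869 over genes, 0.423 with the block). In the 3XHMT arrays Setdb1 stood at 63.2%, Ehmt2 at 66.8% and Ehmt1 at 79.6% of control, with limma adjusted p of 0.556, 1.00 and 1.00, and 0.0520, 0.294 and 0.217 with the block. Over genes in place of probe sets, Setdb1 passed with the block (0.0295).

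Krt8, the type II keratin of simple epithelia, separated the groups most widely. Its log2 values were 7.08, 8.65 and 8.23 in the control arrays, 7.30 and 7.50 in the 3XHMT arrays, and 9.56, 9.65 and 9.56 in the Cbx3 arrays. Every Cbx3 array was above every other array, and the 3XHMT arrays lay inside the control range near its lower end. The group means were 7.99 ± 0.82 (SD, n = 3), 7.40 ± 0.14 (SD, n = 2) and 9.59 ± 0.05 (SD, n = 3). Krt18, the type I keratin that pairs with Krt8, read 5.16, 5.85 and 5.49 in the control arrays, 5.28 and 5.40 in the 3XHMT arrays, and 6.19, 6.17 and 6.09 in the Cbx3 arrays. The order of the groups was that of Krt8 on a smaller scale, again with no overlap between Cbx3 and the rest. Krt19, another type I keratin, behaved otherwise: 10.72, 10.70 and 10.93 in control, 9.96 and 10.63 in 3XHMT, and 11.99, 10.26 and 11.57 in Cbx3. The array Cbx3 2 fell among the 3XHMT values while the other Cbx3 arrays stood above all the rest, so that Krt19 showed no clean separation of Cbx3.

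Marveld3, the MARVEL-domain protein of tight junctions, read 5.71, 6.73 and 6.44 in the control arrays, 5.60 and 5.47 in the 3XHMT arrays, and 7.71, 7.80 and 7.35 in the Cbx3 arrays. The 3 groups occupied separate ranges, 3XHMT lowest and Cbx3 highest. Cldn4, a claudin of tight junction strands, read 6.54, 7.86 and 7.08 in control, 7.25 and 6.75 in 3XHMT, and 8.66, 9.04 and 8.32 in Cbx3. Here the 3XHMT arrays were within the control range, and Cbx3 alone was apart. Cldn7, the claudin that Epcam binds, read 5.29, 6.28 and 5.41 in control, 5.57 and 5.11 in 3XHMT, and 5.88, 6.45 and 5.41 in Cbx3, so that all groups overlapped with control. Tjp3, the ZO-3 scaffold, read 6.12, 6.32 and 5.64 in control, 5.84 and 5.77 in 3XHMT, and 7.01, 6.53 and 6.19 in Cbx3. Its Cbx3 arrays lay above both 3XHMT arrays, and 1 of them fell below the highest control array.

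Cdh1, the E-cadherin of adherens junctions, read 9.64, 10.83 and 9.59 in the control arrays, 10.24 and 9.96 in the 3XHMT arrays, and 10.91, 11.39 and 10.36 in the Cbx3 arrays. The array control 2, of the tier with the most 18S signal, was above Cbx3 3, so that the groups overlapped. Epcam, the surface adhesion protein, read 10.65, 11.70 and 11.16 in control, 11.54 and 11.69 in 3XHMT, and 11.87, 12.47 and 12.11 in Cbx3. All Cbx3 arrays were above all others, and both 3XHMT arrays were in the upper part of the control range. Prss8, the serine protease prostasin, read 4.73, 4.82 and 4.60 in control, 4.83 and 5.16 in 3XHMT, and 5.58, 5.53 and 5.30 in Cbx3. Prss8 was ordered with control lowest and 3XHMT between, unlike Krt8 and Marveld3.

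**Figure D1:**
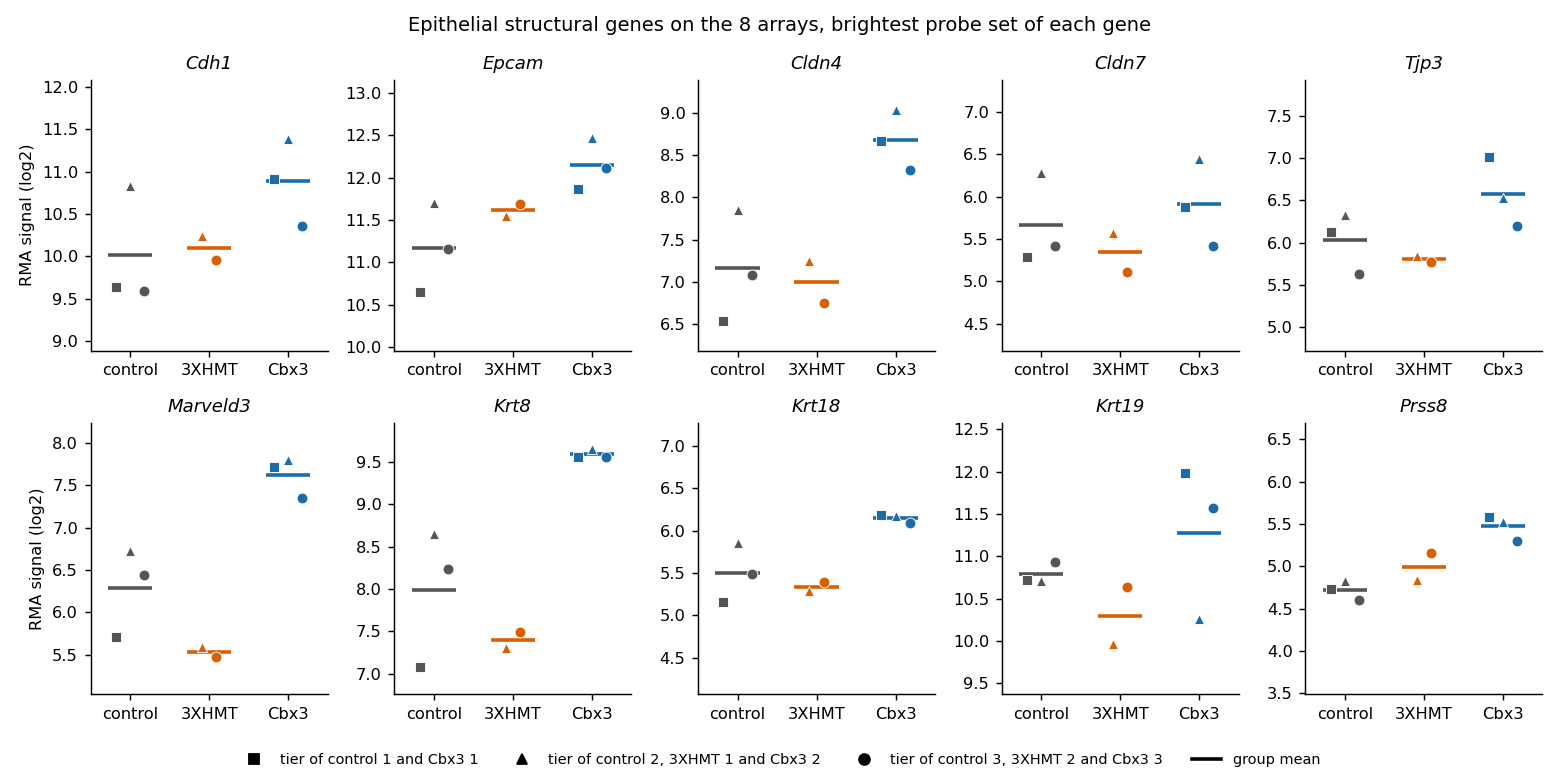
Log2 value (vertical axis) of each of the 10 genes on each of the 8 arrays, one panel per gene, by siRNA group, with marker shapes for the 18S tiers and the group mean as a bar. The Cbx3 arrays stand above all control arrays for Epcam, Cldn4, Marveld3, Krt8, Krt18 and Prss8, and the groups overlap for Cdh1, Cldn7, Tjp3 and Krt19.

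The first comparison asks what siRNA to Cbx3 did to this set. Its mean was higher than control for 10 of 10 genes, and no difference passed limma's test over all genes in the fit without the tier. The members' median difference was 0.81 on the log2 scale, beside 0.01 over all 18193 genes. Krt8 was 3.04-fold higher (log2 difference 1.60, SE 0.34, 95% interval 0.82 to 2.38, limma adjusted p = 0.112), Cldn4 2.85-fold higher (1.51, SE 0.33, 0.76 to 2.26, adjusted p = 0.118) and Marveld3 2.51-fold higher (1.33, SE 0.25, 0.76 to 1.90, adjusted p = 0.0796). In whole-cell RNA, a change in the share of cells of a type and a change in RNA per cell cannot be told apart. This holds for every gene here. Epcam was 1.97-fold higher (0.98, SE 0.26, 0.38 to 1.57, limma adjusted p = 0.187), Cdh1 1.83-fold (0.87, SE 0.36, 0.04 to 1.70, adjusted p = 0.490), Prss8 1.68-fold (0.75, SE 0.13, 0.44 to 1.06, adjusted p = 0.0689) and Krt18 1.57-fold (0.65, SE 0.17, 0.26 to 1.04, adjusted p = 0.178). Tjp3 differed by 0.55 (0.01 to 1.09, adjusted p = 0.509), and the intervals of Krt19 (0.49, -0.42 to 1.39) and Cldn7 (0.25, -0.49 to 1.0) included 0.

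The background for these counts is small in that fit: 0.253% of all genes passed as higher in Cbx3 and 0.192% as lower, against 0 of 10 members. At an unadjusted p under 0.05, 8 of 10 members were higher (all but Cldn7 and Krt19), where 4.77% of all genes were. With no overlap between the 3 Cbx3 and 3 control arrays, 6 of 10 were higher (Epcam, Cldn4, Marveld3, Krt8, Krt18 and Prss8), where 7.52% of all genes were. Since the members were chosen with earlier results of these data known, these shares are a description and no test of enrichment. Within the control group, control 2 was the highest array for 9 of 10 members, all but Krt19.

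With the tier as a block in limma, 7 of 10 members rose in Cbx3, where 3.09% of all genes rose and 3.50% fell. They were Cldn4 (adjusted p = 0.00181), Marveld3 (0.00487), Epcam (0.00550), Krt8 (0.00628), Prss8 (0.0102), Krt18 (0.0304) and Cdh1 (0.0305). Tjp3 (0.0645), Krt19 (0.350) and Cldn7 (0.401) did not pass. The labels' replicate numbers pair each control array with a Cbx3 array of the same tier, and with that pair as a block 8 of 10 rose, Tjp3 (0.0440) being added, where 3.80% of all genes rose. These counts depended on the arrays: 2 genes (Cldn4 and Marveld3) still passed with the tier block when control 3 was left out, and 4 (Epcam, Cldn4, Marveld3 and Krt8) when control 1 or Cbx3 1 was. Control 1 and Cbx3 1 share a tier with no other array, so either omission gives the same fit.

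Within tiers the difference could be read array against array. Between Cbx3 1 and control 1 all 10 genes were higher in Cbx3, with a median of 1.24 and with Krt8 at 2.49, Cldn4 at 2.12 and Marveld3 at 2.01. Between Cbx3 3 and control 3 all 10 were again higher, with a median of 0.74, but Cldn7 differed by only 0.0016. Between Cbx3 2 and control 2 the median was 0.63 and 9 were higher, while Krt19 was lower (-0.44). Of all genes, 54.0%, 50.9% and 48.6% were higher in these 3 pairs. Krt8, Marveld3 and Cldn4 exceeded 0.9 in every pair, and Prss8 was the most even, at 0.85, 0.70 and 0.71.

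The second comparison asks the same of the 3 methyltransferases. No member passed limma's test in 3XHMT against control, without or with the tier block. Of all genes 0.203% passed as higher and 0.0275% as lower without it, and 0.868% and 0.890% with it. The mean was lower than control for 7 members and higher for Epcam, Prss8 and Cdh1, with a median of -0.19 beside 0.01 over all genes. Marveld3 was 1.69-fold lower (log2 difference -0.76, 95% interval -1.40 to -0.12, limma adjusted p = 0.769) and was the only member lower at an unadjusted p under 0.05, where 2.63% of all genes were. Krt8 differed by -0.59 (-1.46 to 0.28, adjusted p = 1.00), Krt19 by -0.49 (-1.50 to 0.53) and Cldn7 by -0.32 (-1.15 to 0.51). Cldn4 (-0.16, -1.0 to 0.68), Krt18 (-0.16, -0.59 to 0.27) and Cdh1 (0.08, -0.84 to 1.01) had small mean differences with intervals that included 0. Epcam stood at 0.45 (-0.22 to 1.11) and Prss8 at 0.28 (-0.07 to 0.62).

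With 2 arrays in the 3XHMT group these intervals are wide, and a missed threshold does not show that a gene was level. The arrays did not overlap with control for Marveld3 and Krt19, which were lower, and for Prss8, which was higher. Of all genes 7.10% were lower with no overlap, beside 2 of 10 members, and 9.28% were higher, beside 1 of 10. Within tiers, 3XHMT 1 lay below control 2 for 9 of 10 genes (median -0.60), while 3XHMT 2 lay above control 3 for 4 of 10 (Cdh1, Epcam, Tjp3 and Prss8, median -0.20). Of all genes, 50.3% and 47.0% were higher in 3XHMT in these 2 pairs. Marveld3 (-1.13 and -0.97) and Krt8 (-1.35 and -0.74) were lower by more than 0.7 in both pairs. Control 1, the lowest control array for both genes, had no 3XHMT array in its tier. For Krt8 it lay below both 3XHMT arrays (7.08 against 7.30 and 7.50), and for Marveld3 above both (5.71 against 5.60 and 5.47). With the tier block and control 1 left out, Marveld3 and Krt8 passed the limma test as lower in 3XHMT (adjusted p = 0.00873 and 0.0174). Leaving out Cbx3 1 gives the same fit, since control 1 and Cbx3 1 share a tier with no other array. Without control 2, control 3, Cbx3 2 or Cbx3 3 neither gene passed (limma adjusted p of 0.0923 to 0.542 for Marveld3 and 0.240 to 0.711 for Krt8).

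**Figure D2:**
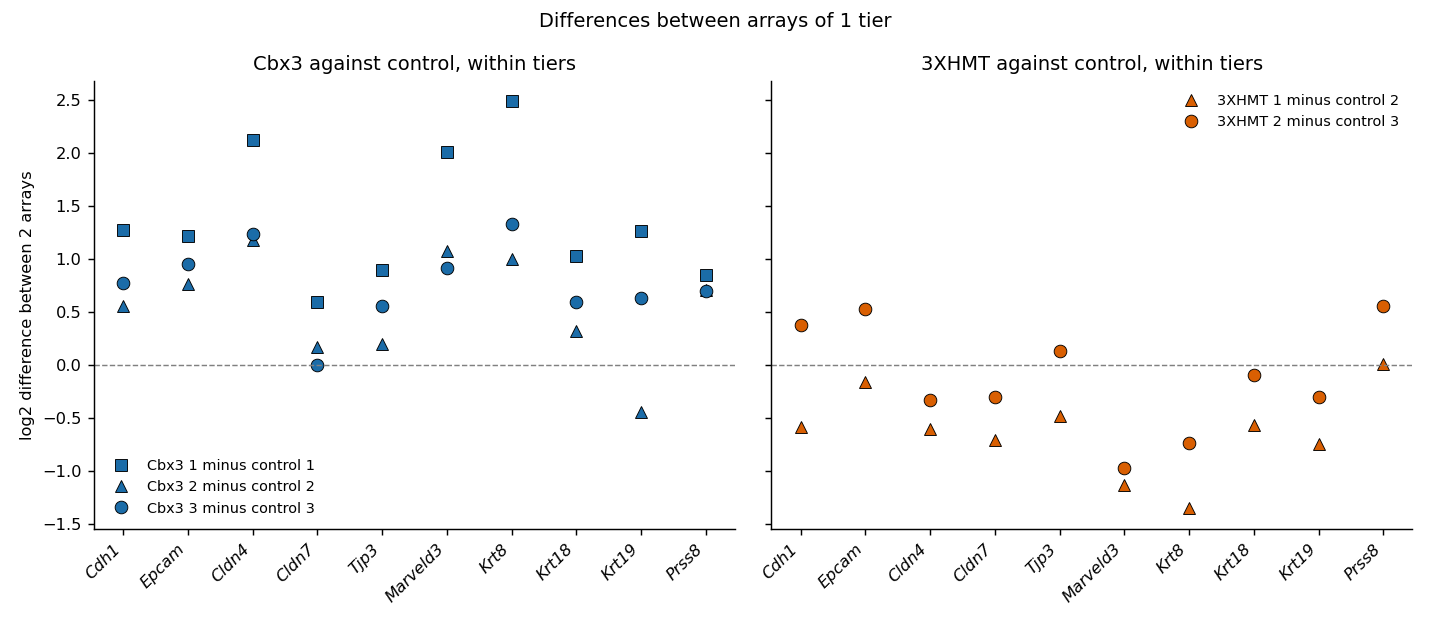
Log2 difference (vertical axis) between knockdown and control arrays of the same 18S tier for each gene, Cbx3 on the left with 3 pairs and 3XHMT on the right with 2. On the left all points but 1 of Krt19 (-0.44) lie at or above 0, and on the right Marveld3 and Krt8 lie lowest.

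The third comparison sets the knockdowns against each other. It shares its arrays with both comparisons above, so it is a direct test of their difference and no separate support for either. The mean was higher in Cbx3 than in 3XHMT for 10 of 10 members, with a median of 0.80 beside 0.00 over all genes. Krt8 was 4.57-fold higher (log2 difference 2.19, SE 0.38, 95% interval 1.32 to 3.06, limma adjusted p = 0.0336) and Marveld3 4.26-fold higher (2.09, SE 0.28, 1.45 to 2.73, adjusted p = 0.0150). These 2 of 10 passed, where 0.704% of all genes passed as higher and 0.808% as lower. Both calls were lost when either 3XHMT array, Cbx3 1 or Cbx3 2 was left out (adjusted p of 0.0578 to 0.111 for Marveld3 and 0.113 to 0.177 for Krt8), and that of Krt8 also without Cbx3 3 (0.0873). The mean over Marveld3's 3 probe sets gave a difference of 1.01 in place of 2.09.

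Cldn4 was 3.18-fold higher in Cbx3 than in 3XHMT (1.67, SE 0.37, limma adjusted p = 0.0776) and Krt18 1.75-fold (0.81, SE 0.19, adjusted p = 0.0928). Krt19 differed by 0.98, Cdh1 by 0.78, Tjp3 by 0.77, Cldn7 by 0.57, Epcam by 0.53 and Prss8 by 0.47, all with limma adjusted p of 0.223 or more. An unadjusted p under 0.05 was reached by 6 of 10 members, where 5.76% of all genes were higher by that measure. The arrays of the knockdowns did not overlap for 8 of 10 members, all but Cldn7 and Krt19, where 13.5% of all genes were higher in that way. With the tier block 7 of 10 were higher in Cbx3 (Marveld3 0.000787, Cldn4 0.00118, Krt8 0.00148, Krt18 0.0123, Epcam 0.0290, Cldn7 0.0418 and Cdh1 0.0442 as limma adjusted p), where 4.43% of all genes were higher and 4.69% lower. That count was 3 without 3XHMT 1 and 4 without control 1, control 3, Cbx3 1 or Cbx3 3.

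The knockdowns thus differed directly for Krt8 and Marveld3 in the gene fit on all arrays. Both calls were lost when some single arrays were left out. Adjusted over all probe sets, the brightest Krt8 probe set did not pass (limma adjusted p = 0.0689). In the fits on all arrays no member passed in both comparisons with control. Marveld3 alone had unadjusted 95% intervals on opposite sides of 0 without a block (0.76 to 1.90 in Cbx3, -1.40 to -0.12 in 3XHMT). In 3XHMT this held only for its brightest probe set. Fitted with all probe sets, its 1451764_at differed from control by -0.27 (-0.76 to 0.22) and its 1444809_at by -0.16 (-0.66 to 0.35). With the tier block the 3XHMT intervals of Marveld3 (-1.39 to -0.38), Krt8 (-1.47 to -0.17) and Cldn7 (-0.80 to -0.03) lay below 0. Their limma adjusted p were 0.111, 0.273 and 0.347. The Cbx3 interval of Cldn7 in that fit included 0 (-0.08 to 0.58). Against control, 7 members had a positive difference in Cbx3 and a negative one in 3XHMT (Cldn4, Cldn7, Tjp3, Marveld3, Krt8, Krt18 and Krt19), and Cdh1, Epcam and Prss8 were positive in both. These comparisons share the control arrays, so the signs are not independent of each other. The mean of the 10 genes, each centred on its own mean over the arrays, was -0.66, 0.15 and -0.36 in the control arrays, -0.48 and -0.48 in the 3XHMT arrays, and 0.71, 0.71 and 0.41 in the Cbx3 arrays. The 3XHMT arrays sat inside the control range on this mean, and Cbx3 above it.

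**Figure D3:**
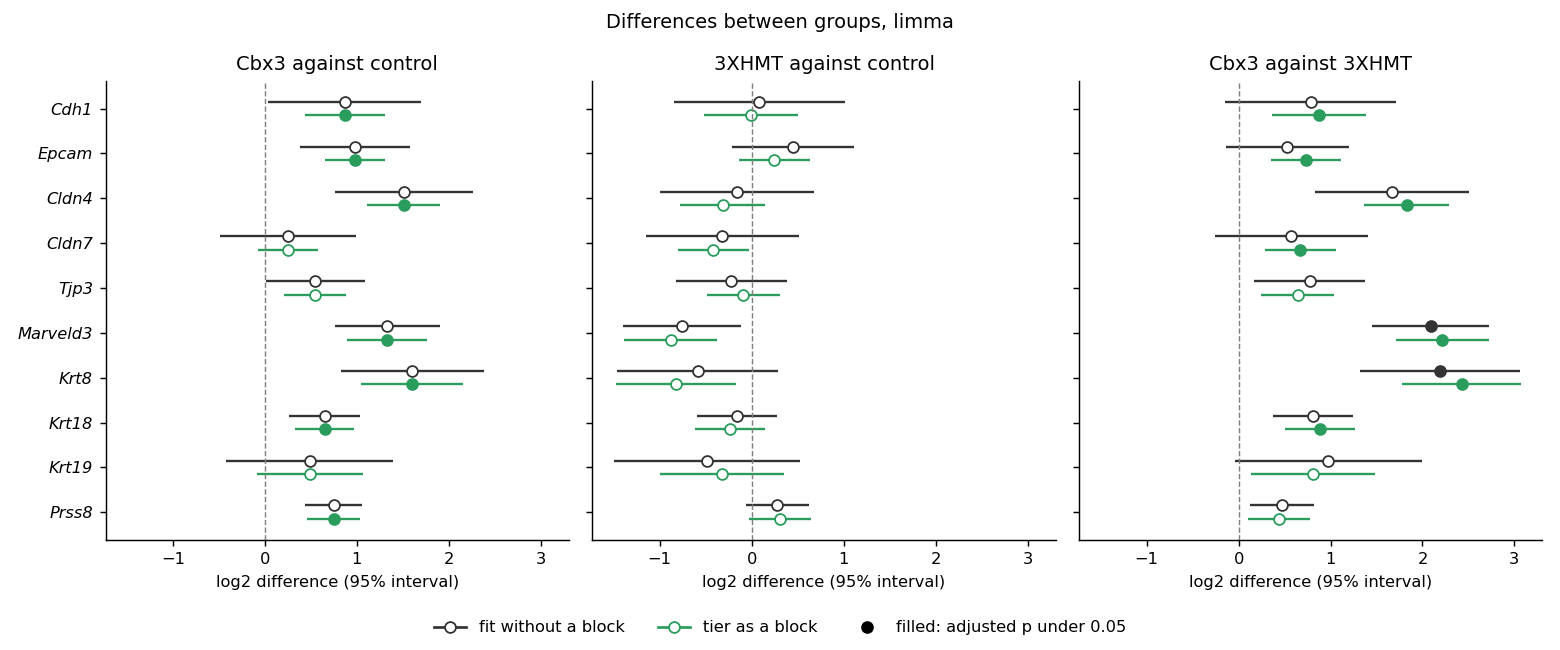
Log2 difference with its 95% interval (horizontal bars) for each gene in the 3 comparisons, from the limma fit without a block (black) and with the tier as a block (green), filled where the adjusted p was under 0.05. Without a block, Cbx3 against control and Cbx3 against 3XHMT are positive for all 10 genes, and the 3XHMT against control intervals include 0 for all but Marveld3 (-1.40 to -0.12).

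The probe sets of 1 gene did not always tell the same story. The 3 Krt8 probe sets gave like values: in Cbx3 against control they differed by 1.60, 1.75 and 1.46, and in every one the Cbx3 arrays, from 9.10 to 9.65, were above all others. In a fit of all probe sets, 1435989_x_at of Krt8 passed in Cbx3 against 3XHMT (limma adjusted p = 0.0375), while 1423691_x_at (0.0649) and 1420647_a_at (0.0689) did not. For Marveld3 the difference between Cbx3 and control was largest on 1453264_at (1.33). The Marveld3 probe set 1451764_at read 4.66, 4.95 and 5.33 in control and 5.71, 5.25 and 5.42 in Cbx3, a difference of 0.48. The third, 1444809_at, between 4.59 and 5.25 on all 8 arrays, differed by 0.02. Between Cbx3 and 3XHMT, 1453264_at differed by 2.09, 1451764_at by 0.75 (limma adjusted p = 0.261) and 1444809_at by 0.18 (0.966). The second Epcam probe set, 1447899_x_at, differed by 0.48, against 0.98 for the brighter one. Of the 15 probe sets, 0 passed as higher in Cbx3 against control (background 0.0377%) and 9 did with the tier block (1.45%). In Cbx3 against 3XHMT 2 of 15 passed (0.213%) and 7 with the tier block (2.16%). Probe sets ending in _x_at can match other transcripts as well, and what other transcripts add to these values was not tested.

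**Figure D4:**
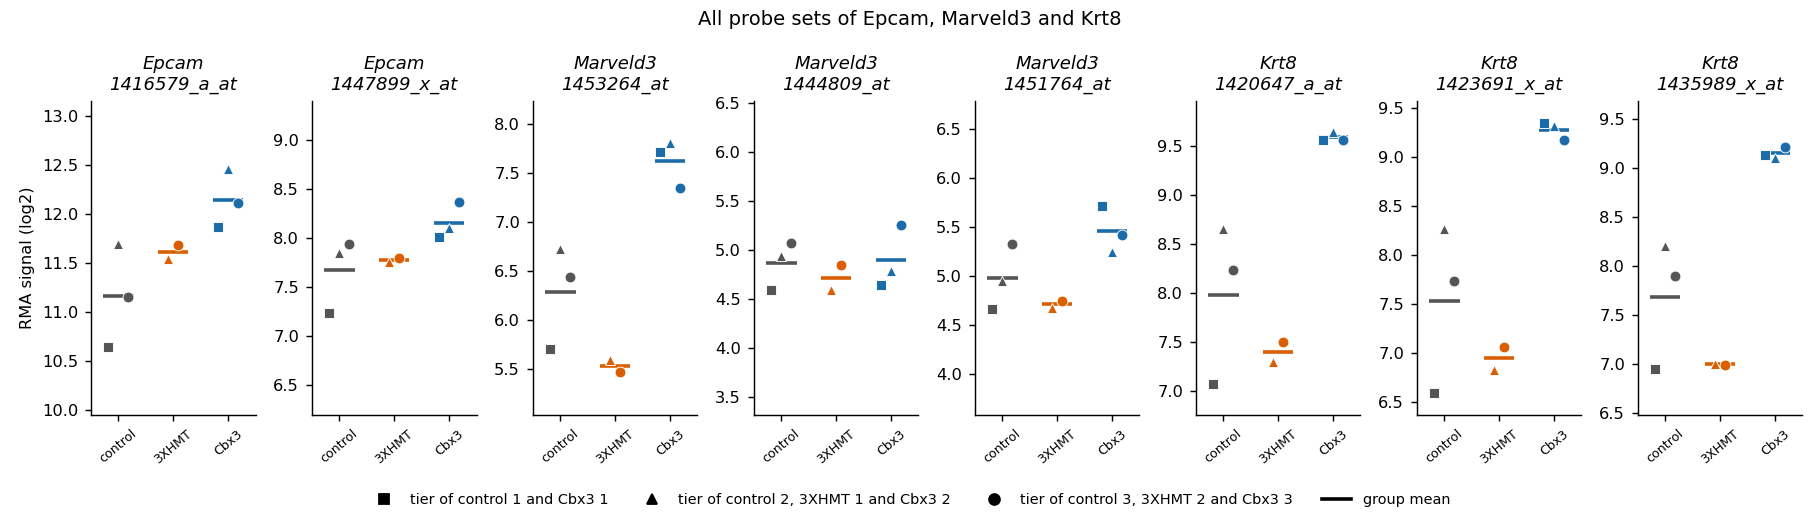
Log2 value (vertical axis) of every probe set of Krt8, Marveld3 and Epcam on each array, by siRNA group, with marker shapes for the 18S tiers and the group mean as a bar. All 3 Krt8 probe sets are highest in the Cbx3 arrays, and of the Marveld3 probe sets 1444809_at stays between 4.59 and 5.25 throughout.

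The rest of the epithelial junction, filament and protease genes were set beside the 10 as 58 measured genes in 6 lists. In Cbx3 against control 1 of 58 passed without the tier block, periplakin (Ppl, a linker of keratin filaments to junctions, 0.66, limma adjusted p = 0.0368). With the tier block 10 of 58 rose and 2 fell, where 3.09% of all genes rose and 3.50% fell, so that the falls were at the share of all genes. Tight junction genes gave 4 of 19: Patj (1.05, adjusted p = 0.00176), a polarity scaffold, Cldn3 (0.86, 0.0434), a claudin and neighbour of Cldn4, F11r (0.70, 0.0186), the adhesion molecule JAM-A, and Tjp1 (0.50, 0.0176), the scaffold ZO-1. Keratin and keratin-binding genes gave 3 of 8, Lad1, Evpl and Ppl, while the plakin Eppk1 fell (-0.66, 0.0430). Of the partners of E-cadherin and related adhesion genes 1 of 9 rose, Nectin2, and Nectin3 fell (-0.79, 0.00692). Desmosome genes gave 0 of 7. The protease system of Prss8 gave 1 of 7, Spint1 (0.67, 0.00836), an inhibitor of membrane serine proteases, and the trafficking and signalling genes 1 of 8, Elf3 (0.47, 0.0458), an epithelial ETS factor.

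List medians in Cbx3 against control were -0.01 for the adherens partners, 0.16 for tight junctions, -0.11 for desmosomes, 0.23 for keratin-related genes, 0.20 for the protease system and 0.18 for trafficking and signalling. The 10 named genes stood at 0.81. These lists, like the 10 genes, were chosen with earlier results in view. In 3XHMT against control 0 of 58 passed without the block, and with it Cldn9 (-1.50 without the block, adjusted p with it 0.0185) and the desmosomal cadherin Dsc2 (-1.03, 0.0455) were lower. These were 2 of 58, beside 0.890% of all genes, and 0 of 58 were higher, beside 0.868%. In Cbx3 against 3XHMT, Ppl (0.92, 0.0113) and Tjp1 (0.72, 0.0415) were higher in limma without the block, and with it 14 of 58 were higher and 2 lower, beside 4.43% and 4.69% of all genes. The 14 included St14 (matriptase) and its inhibitors Spint1 and Spint2.

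Among 9 regulators of epithelial identity 0 passed in Cbx3 against control without the tier block and 5 rose with it, beside 3.09% of all genes: Grhl3 (1.05, limma adjusted p = 0.000772) and Grhl1 (0.70, 0.00729), which are grainyhead-like factors, the splicing regulators Esrp2 (0.67, 0.0136) and Esrp1 (0.75, 0.0383), and the repressor Ovol2 (0.71, 0.0326). Grhl1 was also higher in Cbx3 than in 3XHMT without the block (0.98, 0.0159). Its values were 7.28, 7.03 and 7.05 in control, 6.75 and 6.93 in 3XHMT, and 7.82, 7.91 and 7.72 in Cbx3, 3 separate ranges as for Marveld3. Of 8 genes for EMT regulators and N-cadherin, 0 passed as higher in Cbx3 than in control. Cdh2, the N-cadherin of mesenchymal and neural cells, fell with the block (-0.88, limma adjusted p = 0.00614). In Cbx3 against 3XHMT 1 of 8 was higher with the block, Twist1, beside 4.43% of all genes, and 0 were lower. Twist1 read 4.82, 5.57 and 5.40 in control, 4.70 and 4.37 in 3XHMT, and 5.28, 5.58 and 4.95 in Cbx3. Cdh2 read 9.56, 9.54 and 9.88 in control, 9.03 and 9.33 in 3XHMT, and 8.98, 8.75 and 8.64 in Cbx3. It was thus lower in both knockdowns by its means, where Cdh1 was highest in Cbx3.

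**Figure D5:**
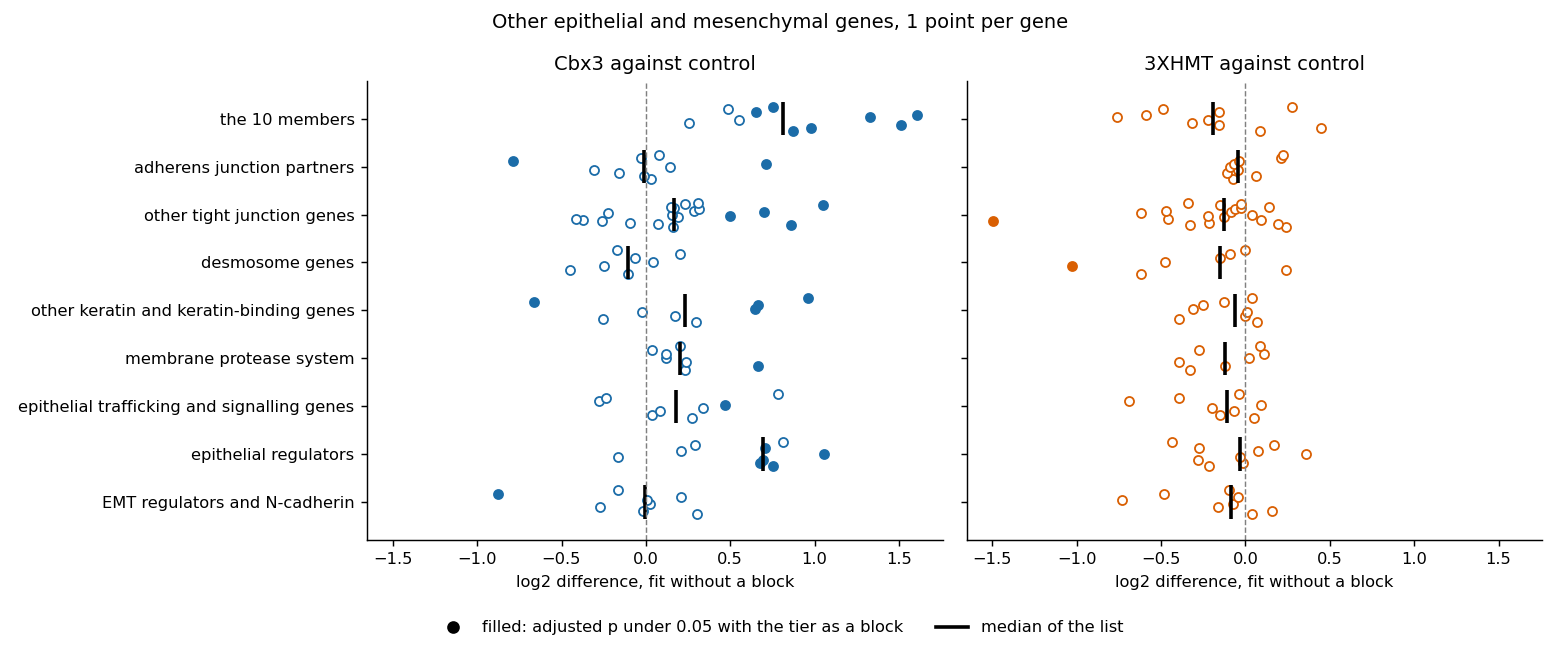
Log2 difference (horizontal axis) of each measured gene of the 10 named genes, the 6 lists of other epithelial genes and the 2 lists of regulators, in Cbx3 against control and 3XHMT against control, with list medians as bars and filled points where the tier-block fit gave an adjusted p under 0.05. In Cbx3 against control the 10 named genes have a median of 0.81 and the epithelial regulators 0.70, while the other lists have medians between -0.11 and 0.23.

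Markers of other cells were read on the same arrays as a mean log2 value of the list per array, on a scale that has no zero. Of 8 markers of stratified epithelium, 0 passed in any comparison, and their means were 5.55 to 5.73 in control, 5.50 to 5.68 in 3XHMT and 5.63 to 5.74 in Cbx3. Of 10 fibroblast markers 0 passed without the tier block, with means of 5.67 to 5.77 in control, 5.80 to 5.94 in 3XHMT and 5.896 to 5.929 in Cbx3. Every knockdown array was above every control array on this mean. With the block Fbln2 was higher in Cbx3 than in control, 1 of 10 beside 3.09% of all genes. Dcn and Fbln2 were higher in 3XHMT than in control, 2 of 10 beside 0.868%. Set against 3XHMT with the block, Col3a1 and Postn were higher in Cbx3 and Dcn lower, beside 4.43% and 4.69% of all genes. Of 8 trophoblast markers, cells that are themselves epithelial, 0 passed in Cbx3 against control with or without the block, with means of 5.54 to 5.96 in control, 5.74 to 5.78 in 3XHMT and 5.94 to 6.07 in Cbx3. In Cbx3 against 3XHMT 4 of 8 were higher with no overlap (Cdx2, Hand1, Gata3 and Tfap2c), beside 13.5% of all genes, and Tfap2c, which is also in the list of epithelial regulators, passed with the block (1.38, limma adjusted p = 0.0108). Primitive endoderm markers (9) had means of 5.43 to 5.64, 5.62 to 5.71 and 5.46 to 5.56, and macrophage and blood markers (5) of 5.20 to 5.34, 5.27 to 5.36 and 5.19 to 5.54. Lama1, 1 of the 9 primitive endoderm markers, was lower in Cbx3 than in 3XHMT with the block, beside 4.69% of all genes.

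Of 8 pluripotent cell markers, Nanog alone passed in Cbx3 against control, with values of 4.87, 5.10 and 5.41 in control, 8.15 and 7.72 in 3XHMT and 7.79, 9.28 and 8.25 in Cbx3. Of all genes 0.253% passed as higher in that comparison without the block. In 3XHMT against control Nanog, Zfp42 and Dppa4 passed as higher without the block, 3 of 8 beside 0.203% of all genes. Zfp42 and Dppa4 were lower in Cbx3 than in 3XHMT without the block, 2 of 8 beside 0.808%. The list means were 7.99 to 8.70 in control, 9.40 to 10.01 in 3XHMT and 8.48 to 9.0 in Cbx3, highest in 3XHMT. Of the 10 epithelial genes, 7 had means below control in 3XHMT, and Epcam, Prss8 and Cdh1 had means above it. The part of any of these cell types in the epithelial values was not tested.

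The genes whose values over the 8 arrays were most like the mean of the 10 were Unc13b (Pearson r = 0.982), Oplah (0.972), Klk1b5 (0.972), Eps8l2 (0.971) and AU018091 (0.970). Of these Oplah was higher in Cbx3 than in control (1.06, limma adjusted p = 0.0454) and in 3XHMT (1.14, 0.0280). Eps8l2 was higher in Cbx3 than in 3XHMT (0.73, 0.0442) and differed from control by 0.69 (0.0689). Of all genes 0.253% passed as higher in Cbx3 than in control, and 0.704% as higher than in 3XHMT. The genes named here were picked for likeness to a mean that was itself highest in the Cbx3 arrays. Their higher values in Cbx3 are therefore partly fixed by that choice, and their p-values are no separate test. The correlations are a description over 8 points that share groups and tiers.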

How the data were processed

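Total RNA from 8 samples was hybridised to 1-colour Affymetrix-type mouse arrays. The authors deposited log2 values made with RMA, per the submitters' processing notes (version not given in the sources used here), a method that removes background, gives all arrays the same distribution and combines probes, which takes out any shift common to most genes. Array medians were 5.87 to 5.90. The number of arrays limits precision, and signal near background compresses differences: the brightest probe sets of Cldn7, Krt18 and Prss8 had means below the median probe set (5.89).

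Probe sets were named from the platform annotation: 34958 had 1 symbol, 932 several and 9211 were not listed. The 64 control probe sets were not tested. Groups come from the labels. All 8 arrays entered 1 fit of group means in limma 3.58.1 (R 4.3.3, lmFit, eBayes, two-sided, 5 residual degrees of freedom, 3 with the tier block), with Benjamini-Hochberg adjustment over all 18193 genes or all 45037 probe sets and a threshold of 0.05. The code was tested on simulated data. The members and lists, the 18S tier and the rule for names were chosen with earlier results of these data known. Named were all members and targets, companion genes that passed in a comparison or had the lowest p, and the 5 genes most like the members. Marker genes fall outside that rule and were named to spell out a count. Control and Cbx3 numbers pair (every same-numbered pair of deviations correlated, by 0.57, 0.59 and 0.74); those of 3XHMT do not. Alternatives were other normalization, filters, probe-set summaries, blocks and arrays left out.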

Additional observations from a re-analysis of the deposited data

How the results depend on the processing

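Of the members called in Cbx3 against control there were 0 as reported, 7 with the tier block and 8 in the paired fit with the replicate block. In 3XHMT against control there were 0 under every setting run on all arrays. In Cbx3 against 3XHMT there were 2, and 7 with the tier block, 4 with those groups alone and 1 for the brightest probe sets adjusted over all probe sets (Marveld3). Of the 15 probe sets 0 and 2 were called in Cbx3 against control and against 3XHMT (1 each of Marveld3 and Krt8), and 9 and 7 with the tier block. Leaving out 1 array at a time gave 0 in both comparisons with control and 0 to 3 in Cbx3 against 3XHMT. With the tier block the ranges were 2 to 8, 0 to 2 and 3 to 8. Those omissions under the tier block were chosen after seeing the data.

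Over single members 439 values kept direction and call, 24 passed newly, 10 no longer passed and 8 turned sign. Those that turned were small: Cdh1 in 3XHMT against control gave -0.0040 with the tier block and -0.13 to 0.49 over the arrays left out, Cldn4 there -0.47 to 0.19 and Krt18 -0.33 to 0.016, and Cldn7 in Cbx3 against control -0.014 to 0.56. The cause was not tested. Over all genes 81, 42 and 275 were called as reported, 1199, 320 and 1660 with the tier block and 1448 with the replicate block in Cbx3 against control. With the compared groups alone the counts against control became 27 and 10, over all probe sets 35 and 25, and in 3XHMT against control without dim probe sets 9. With 1 array left out they ranged over 2 to 34, 3 to 22 and 22 to 273. A lone 3XHMT array was taken to vary like the other groups. Removing dim probe sets dropped 3 members and left 11524 genes. Another background correction could not be run on RMA values, and the replicate block was not run for 3XHMT.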
